A study of Mus musculus with 33 samples.

Results

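The 10 integrin genes described here were taken by symbol from the 24421 gene rows of each of 33 bulk RNA-seq count files, and all 10 were present in every file. They are Itgal, Itgam, Itgax and Itgad with their shared partner Itgb2, Itga4, Itgb1, Itgb7 and Itga9, and Itgb5. Itgam encodes CD11b, on which the alveolar macs (AMs) of CRE+ mice were sorted, and Itgax encodes CD11c and names the Cre line used to target AMs. The question was how these genes differed between Kupffer cells (KCs, the macs of the liver sinusoids) and AMs, and how they differed in the sorted fractions of each from mice with a Cre and floxed Zeb2, which encodes a zinc finger transcription factor.

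The samples fell into 6 groups. CRE- KCs (n = 6) and CRE- AMs (n = 5) came from Zeb2fl/fl mice. Tim4+ KCs (n = 6) and Tim4- KCs (n = 6) came from Clec4f-crexZeb2fl/fl mice, and CD11b- AMs (n = 5) and CD11b+ AMs (n = 5) came from Itgax-crexZeb2fl/fl mice. The controls therefore carried the floxed alleles too, and no group carried a Cre without them. Mice were on a C57Bl/6 background, of both sexes and 6 to 8 weeks old, with littermates as controls, and 25000 cells were sorted per sample. All 15 AM libraries had Xist counts and at most 1 count of the Y-linked Ddx3y, whereas replicates 5 and 6 of each KC group had Ddx3y counts and no Xist count, so the AM samples were of 1 sex and the KC groups were mixed. Several features limit the groups as a model of Zeb2 loss. Clec4f-cre also recombines in a few B cells, Itgax-cre recombines in other CD11c-expressing cells, cells that had kept a copy of Zeb2 were described among the CRE+ macs, and the floxed allele still gives a shortened mRNA. The study also reported that KCs of Clec4f-crexZeb2fl/fl mice were partly replaced from bone marrow. It took Tim4 as a sign of time spent in the liver. In CRE+ KCs, cell origin and the loss of Zeb2 thus cannot be told apart. Every CRE+ AM sample carried the Itgax-cre transgene and no control AM did, so at Itgax the transgene and the loss of Zeb2 cannot be told apart. Whether the transgene holds genes beside Itgax is not given in the sources used here, so the same limit may hold at Itgam, Itgad and their neighbors.

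Integrins are receptors made of an alpha and a beta subunit that bind matrix or other cells and reach the surface only as a pair. The alpha subunits encoded by Itgal, Itgam, Itgax and Itgad pair with the beta2 chain encoded by Itgb2 and form the leukocyte integrins LFA-1, Mac-1 (also complement receptor 3), CD11c/CD18 and CD11d/CD18. The alpha4 chain (Itga4) pairs with beta1 (Itgb1) as a receptor for VCAM-1 and fibronectin or with beta7 (Itgb7) as the gut-homing receptor for MAdCAM-1, alpha9 (Itga9) pairs with beta1, and beta5 (Itgb5) pairs with alphav (Itgav) to bind vitronectin.

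Itgam, Itgax and Itgad lie next to each other on chromosome 7 (GRCm38). Itgam runs from 128062640 to 128118491, Itgax from 128129547 to 128150657 and Itgad from 128154376 to 128223816, all on the plus strand, with Itgal upstream at 127296260 to 127335138. Promoters are shown for Itgam, Itgax and Itgb7, which rose together in CRE+ KCs, and for Itga9, which fell there. Each is the 250 bases before the gene's start in RefSeq (GRCm38.p6), written 5′ to 3′ on the gene's own strand, and entries were found for 7 of the 10 genes. The start used for Itga9 lies inside that gene as GENCODE annotates it (chr9, 118606690 to 118901003), so its window is not upstream of the whole gene. Capitals mark CACCT or AGGTG (the same letters on the other strand), the core of the E-box that ZEB proteins are known to bind, and GAGGAA or TTCCTC, a core of the kind bound by PU.1.
Itgam, chr7:128062390-128062639, + strand: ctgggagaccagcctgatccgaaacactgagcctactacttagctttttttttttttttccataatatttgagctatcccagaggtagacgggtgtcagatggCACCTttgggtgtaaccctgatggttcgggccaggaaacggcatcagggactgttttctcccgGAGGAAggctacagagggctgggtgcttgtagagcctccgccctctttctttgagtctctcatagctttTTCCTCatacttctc
Itgax, chr7:128129300-128129549, + strand: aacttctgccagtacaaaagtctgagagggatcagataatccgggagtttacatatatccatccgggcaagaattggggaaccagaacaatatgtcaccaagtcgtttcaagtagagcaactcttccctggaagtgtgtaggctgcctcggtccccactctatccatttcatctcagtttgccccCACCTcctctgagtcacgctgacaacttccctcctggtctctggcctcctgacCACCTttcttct
Itgb7, chr15:102231936-102232185, - strand: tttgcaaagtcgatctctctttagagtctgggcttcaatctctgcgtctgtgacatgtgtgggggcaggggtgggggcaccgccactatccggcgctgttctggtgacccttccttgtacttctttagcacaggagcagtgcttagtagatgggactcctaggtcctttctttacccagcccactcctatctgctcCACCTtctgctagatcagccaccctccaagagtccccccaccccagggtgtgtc
Itga9, chr9:118711442-118711691, + strand: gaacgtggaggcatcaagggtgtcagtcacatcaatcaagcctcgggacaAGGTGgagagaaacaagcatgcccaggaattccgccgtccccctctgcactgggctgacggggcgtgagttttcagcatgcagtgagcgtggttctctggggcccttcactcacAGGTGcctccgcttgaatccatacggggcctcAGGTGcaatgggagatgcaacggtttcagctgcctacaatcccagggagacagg
CACCT was present 1 time in the Itgam window, 2 times in that of Itgax, 1 time in that of Itgb7 and 3 times in that of Itga9, where 2 of the 3 were the longer CACCTG. The windows of Itgb1 and Itgb5 held 1 each and that of Itga4 held 0. Of 32851 promoters, 46.0% held CACCT and 17.2% held CACCTG in the same window on either strand, and 23.3% held GAGGAA, which was present 2 times in the Itgam window and 0 times in the other three shown. A match is a run of letters and not a binding site, and binding was not measured here.

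Read depth was alike across groups, with 9837240 to 24332306 counts on genes per sample (median 20683608), and 1 library, replicate 1 of the Tim4- KCs, lay below 17454078. Zeb2 was lower in each CRE+ fraction but not absent, at 195 ± 17.1 CPM (read counts scaled to library depth with TMM factors, mean ± SD, n = 5) in CRE- AMs, 105 ± 11.8 in the CD11b- fraction and 62.5 ± 7.80 in the CD11b+ fraction. In the liver it was at 282 ± 37.6 (n = 6) in CRE- KCs, 174 ± 25.9 in Tim4+ KCs and 169 ± 15.4 in Tim4- KCs. The counts cover the whole transcript, so the shortened mRNA is counted as well. KC markers (Clec4f, Timd4, Vsig4, Cd5l, Cdh5, C6, Marco and Folr2) summed to 23800 to 26100 CPM in CRE- KCs and 309 to 519 CPM in CRE- AMs, where Marco led. AM markers (such as Chil3, Car4 and Siglecf) summed to 19500 to 29900 CPM in CRE- AMs and 62.8 to 85.4 CPM in CRE- KCs, so each control group carried the markers of its label. Below, a gene passed with an adjusted p-value under 0.05 in edgeR's quasi-likelihood test over all genes tested, and changed when its absolute log2 fold change was also above 1. In bulk samples, fewer cells of a type and less RNA per cell cannot be told apart.

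**Figure D1:**
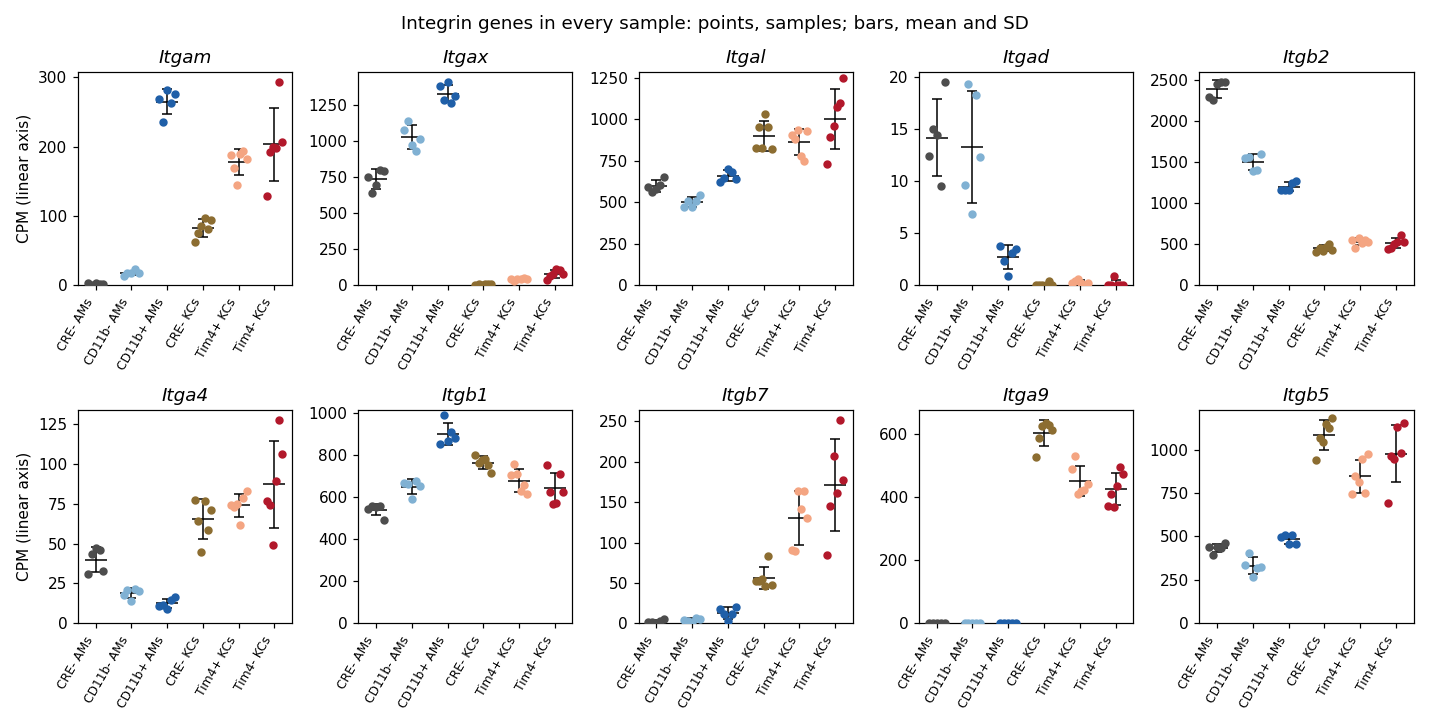
CPM of the 10 integrin genes in every sample, on a linear axis that starts at 0 and has its own scale for each gene. Points are samples and bars are the mean and SD of each group. Itgam, whose product was the sort marker, went from 1.92 CPM in CRE- AMs to 265 CPM in CD11b+ AMs. Itgb2 fell across the same groups, whereas Itga9 had at most 2.50 CPM in any AM sample.

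KCs and AMs of control mice carried different sets of leukocyte integrin RNA. Itgam, Itgb7, Itga9 and Itgb5 were higher in KCs, and Itgax, Itgad and Itgb2 were lower. All 10 genes passed and 7 changed, against 63.2% and 33.3% of the 12145 genes tested, and the median log2 fold change of KCs over AMs was 0.68 for the 10 genes and 0.03 for all genes. With KC samples that had Xist counts alone, 7 of the 10 changed as well. Itgax, which marks AMs, was present at 640 to 804 CPM in the 5 CRE- AM samples and at 2.26 to 11.5 CPM in the 6 CRE- KC samples. The groups lay far apart, and the log2 fold change was -6.62 (SE 0.31, adjusted p = 1.68e-10). Itgam went the other way, with 0.391 to 3.42 CPM in CRE- AMs and 62.7 to 97.2 CPM in CRE- KCs (log2 fold change 5.44, SE 0.32, adjusted p = 1.66e-09). Itgb2, the beta chain common to both, was present at 2253 to 2474 CPM in AMs and at 409 to 506 CPM in KCs (log2 fold change -2.39, SE 0.07, adjusted p = 5.70e-13).

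Itga9, whose product binds tenascin C and other matrix proteins with beta1, had no count in any of the 5 CRE- AM samples and 527 to 635 CPM in CRE- KCs. Taking 3 counts per library as the least the depth could show, KCs were at least 4190-fold higher. Itgb7 was at 0.185 to 5.42 CPM in AMs and 46.6 to 83.6 CPM in KCs (log2 fold change 4.62, SE 0.45, adjusted p = 4.93e-07), and Itgb5 at 394 to 463 CPM in AMs and 939 to 1181 CPM in KCs (log2 fold change 1.35, SE 0.07, adjusted p = 3.64e-10). Itgad, which encodes CD11d, had 9.58 to 19.5 CPM in AMs, while 4 of the 6 CRE- KC samples had no count of it and replicate 5 held 8 of the 9 counts. Its log2 fold change was -7.50 (SE 0.65, adjusted p = 1.30e-07) and -9.84 without that replicate. Smaller differences in favor of KCs were seen for Itgal (log2 fold change 0.62), Itga4 (0.74) and Itgb1 (0.53), all of which passed, and the values of Itga4 overlapped between the groups.

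Within AMs, Itgam was higher in both sorted CRE+ fractions than in CRE- cells. The fraction sorted as lacking surface CD11b had more Itgam RNA than control AMs. Replicates 1 to 5 of CRE- AMs had 2.42, 0.391, 3.42, 1.49 and 1.89 CPM of Itgam. The CD11b- AMs had 13.4, 17.7, 17.1, 22.7 and 17.8 CPM, and the CD11b+ AMs 269, 235, 282, 262 and 276 CPM. No value of any group overlapped with another. A further annotated gene, Gm49368, overlaps Itgam and has no row in the files. The log2 fold change against CRE- AMs was 3.19 (SE 0.25) in CD11b- AMs. In CD11b+ AMs it was 7.08 (SE 0.25), and between the fractions it was 3.89 (SE 0.20). These values are given as a description and not as results, since CD11b, the product of Itgam, was the sort marker of both fractions. The labels of control AMs name no sort on CD11b. The purity of the sort is not given, and carry-over of CD11b+ cells into the CD11b- fraction was not tested. Both comparisons with CRE- AMs used the same 5 control samples.

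With the sort marker Itgam left out of the counts, 7 of the other 9 integrin genes passed in CD11b- AMs and 2 changed, against 25.7% and 6.5% of the 11573 genes tested, with a median log2 fold change of 0.09 for all 10 genes and 0.00 for all genes (0.00269). In CD11b+ AMs, 7 of the 9 passed and 5 changed, against 43.2% and 15.3%, with medians of 0.44 and -0.01. Itga9 is among those that passed and changed in both fractions. It had no count in CRE- AMs and was tested only through CRE+ samples, so its direction was fixed in advance. The values of 6 of the 9, Itga9 among them, did not overlap between CD11b+ and CRE- AMs, as was so for 32.6% of the genes tested. For CD11b- AMs this held for 5 of the 9 and for 18% of the genes tested.

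Itgax, expressed by AMs at rest, rose less than Itgam. Its values were 754, 640, 700, 804 and 793 CPM in replicates 1 to 5 of CRE- AMs, 1082, 1142, 975, 934 and 1016 CPM in CD11b- AMs, and 1382, 1290, 1413, 1267 and 1314 CPM in CD11b+ AMs. The 3 groups did not overlap and rose in that order. The log2 fold changes against CRE- AMs were 0.48 (SE 0.07, adjusted p = 2.27e-05) and 0.84 (SE 0.07, adjusted p = 2.93e-09), and CD11b+ AMs were above CD11b- AMs by 0.36 (SE 0.07, adjusted p = 0.000262).

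Itgb2 fell while its partners Itgam and Itgax rose. CRE- AMs had 2293, 2253, 2452, 2474 and 2472 CPM in replicates 1 to 5, CD11b- AMs 1546, 1563, 1397, 1408 and 1597 CPM, and CD11b+ AMs 1159, 1158, 1155, 1250 and 1271 CPM. Again no values overlapped. The log2 fold change was -0.67 (SE 0.05, adjusted p = 1.08e-08) in CD11b- AMs and -1.01 (SE 0.05, adjusted p = 5.18e-12) in CD11b+ AMs, and CD11b+ AMs were below CD11b- AMs (log2 fold change -0.34, SE 0.05, adjusted p = 3.64e-05). Itgal, the other abundant partner, showed no such order. It had 559 to 654 CPM in CRE- AMs, 469 to 543 CPM in CD11b- AMs and 622 to 702 CPM in CD11b+ AMs, and was lower only in CD11b- AMs (log2 fold change -0.26, SE 0.06, adjusted p = 0.00206), while in CD11b+ AMs the log2 fold change was 0.13 (SE 0.06, adjusted p = 0.0689).

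Itgad was the one alpha partner of Itgb2 to fall in CD11b+ AMs. Replicates 1 to 5 had 12.4, 15.02, 14.5, 9.58 and 19.5 CPM in CRE- AMs, 9.59, 19.3, 6.83, 18.3 and 12.4 CPM in CD11b- AMs and 3.72, 2.30, 0.892, 3.08 and 3.50 CPM in CD11b+ AMs. All CD11b+ values lay below all others. The log2 fold change was -2.41 (SE 0.33, adjusted p = 6.28e-06) against CRE- AMs and -2.32 (SE 0.33, adjusted p = 1.85e-05) against CD11b- AMs, whereas CD11b- and CRE- AMs did not differ detectably (-0.10, 95% interval -0.69 to 0.50, adjusted p = 0.863). Itgad and Itgax share 480 stretches of 35 bases, 10.6% of those of Itgad, and exons of Cox6a2 and 4931431B13Rik overlap those of Itgad on the opposite strand. Whether the counts used strand is not given in the sources used here, so their reads cannot be told apart where they overlap. Cox6a2 moved in the opposite direction and rose by 4.45 on the log2 scale in CD11b+ AMs (SE 0.76, adjusted p = 7.83e-05).

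Among the partners of beta1 and beta7, Itga4 fell in both fractions. Its values were 31.1, 43.7, 46.9, 45.7 and 32.5 CPM in replicates 1 to 5 of CRE- AMs, 17.96, 20.7, 13.8, 21.8 and 20.4 CPM in CD11b- AMs and 10.8, 11.8, 8.98, 14.8 and 16.4 CPM in CD11b+ AMs. Every CRE+ sample was below every CRE- sample. The log2 fold change was -1.08 (SE 0.17, adjusted p = 8.52e-05) in CD11b- AMs and -1.68 (SE 0.17, adjusted p = 1.27e-07) in CD11b+ AMs. Exons of Cerkl overlap Itga4 on the other strand, and the same limit holds there. Itgb1 rose, from 494 to 558 CPM in CRE- AMs to 592 to 679 CPM in CD11b- AMs and 855 to 990 CPM in CD11b+ AMs. The log2 fold changes were 0.27 (SE 0.06, adjusted p = 0.00140) and 0.72 (SE 0.06, adjusted p = 2.08e-09), with no overlap between groups.

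Itgb7 and Itga9 were near the bottom of the range in AMs. Itgb7 had 1.52, 2.25, 0.185, 2.41 and 5.42 CPM in replicates 1 to 5 of CRE- AMs, 3.91, 3.48, 1.26, 6.31 and 5.96 CPM in CD11b- AMs and 18.3, 12.1, 2.52, 11.4 and 19.9 CPM in CD11b+ AMs. CD11b+ AMs were higher than CRE- AMs (log2 fold change 2.44, SE 0.58, adjusted p = 0.00197), though 1 of the 5 CD11b+ samples lay within the range of the controls. Itga9 had no count in CRE- AMs, 0 to 0.562 CPM in CD11b- AMs and 0.204 to 2.50 CPM in CD11b+ AMs, at least 1.9-fold and at least 9.14-fold above the 3 counts that the depth could show. Both passed in edgeR (adjusted p = 0.0171 and 0.000509). In limma-voom the first did not (adjusted p = 0.149). Itga9 reached these tests only through CRE+ samples, so their direction was fixed and they are given as a description. Itgb5 was lower in CD11b- AMs, with 269 to 407 CPM against 394 to 463 CPM in CRE- AMs (log2 fold change -0.39, SE 0.08, adjusted p = 0.00151), and in CD11b+ AMs its log2 fold change was 0.15 (SE 0.08, adjusted p = 0.155).

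Between the sorted fractions of CRE+ AMs, 8 of the 9 genes other than the sort marker passed and 2 changed, against 36.4% and 10.2% of the genes tested. In addition to the differences in Itgax, Itgb2 and Itgad given above, CD11b+ AMs had more Itgal (log2 fold change 0.39), Itgb1 (0.46), Itgb5 (0.54) and Itgb7 (1.61) and less Itga4 (-0.61) than CD11b- AMs. The difference in Itgb7 had an adjusted p of 0.0302 and was lost when replicate 1, 2 or 3 of the CD11b- AMs or replicate 1 or 5 of the CD11b+ AMs was left out (adjusted p 0.0585 to 0.0783) and in limma-voom (0.0522). Itga9 did not pass (log2 fold change 2.19, SE 0.92, adjusted p = 0.0750).

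Markers of neutrophils, which carry much CD11b, moved with Itgam across the AM groups. The 10 neutrophil markers in the files, of 11 listed, summed to 54.7 to 74.9 CPM in CRE- AMs, 937 to 2520 CPM in CD11b- AMs and 7990 to 10400 CPM in CD11b+ AMs, led by S100a8 and S100a9, and 5 of the 6 tested changed upward in CD11b- AMs and all 6 in CD11b+ AMs. Mpo and Elane were at 0 in every AM library, while Ltf had a mean of 16.9 CPM in CD11b+ AMs. Monocyte markers summed to 600 to 1060 CPM in CRE- AMs, where Fn1 led, 81 to 177 CPM in CD11b- AMs and 375 to 714 CPM in CD11b+ AMs. Of the 7 tested, 6 changed upward and 1 downward in CD11b+ AMs, and Ly6c2 went from 0.268 to 114 CPM. Lung epithelial markers summed to 125 to 162, 524 to 613 and 1350 to 1720 CPM in the same order, led by Cdh1, Epcam and Krt8, while AM markers summed to 39100 to 54200 CPM in CD11b+ AMs, although 5 of the 8 tested changed downward there and 1 upward. The study found EpCam on AMs that had deleted Zeb2, so Epcam does not mark epithelial cells alone. The part of these in the integrin values, or in those of other genes named below, was not tested.

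**Figure D2:**
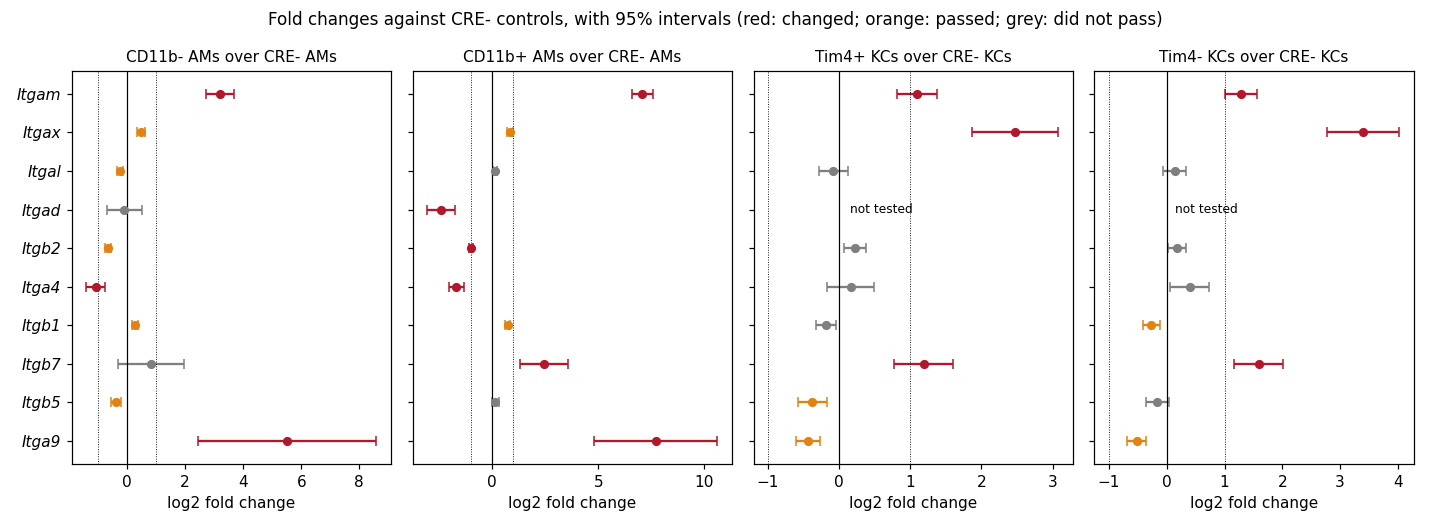
Log2 fold change of each integrin gene in the 4 CRE+ fractions over the CRE- cells of the same tissue, with 95% intervals, from edgeR. Each panel has its own scale. Of the 10, Itgam alone changed in all 4 fractions, with the sort on CD11b in its AM values, and the fold changes of Itga9 in AMs are set by the small count added to controls without any count.

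In KCs, Itgam, Itgax and Itgb7 were higher in both CRE+ fractions than in CRE- KCs, and none of the other 6 tested of the 10 changed. In Tim4+ KCs, 5 of the 9 genes tested passed and 3 changed, against 6.09% and 2.31% of the 12500 genes tested. In Tim4- KCs, 5 of 9 passed and 3 changed, against 25.4% and 8.82%. The median log2 fold change of the 9 genes was 0.16 in Tim4+ and 0.18 in Tim4- KCs, with 0.00 (-0.00311) and -0.03 for all genes. Itgad was at or near 0 in every KC group and was not tested. The 2 comparisons shared the 6 control samples.

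Itgax gave the largest fold change of the 3. It had a lowest, median and highest value of 2.26, 7.78 and 11.5 CPM in CRE- KCs, 27.0, 42.5 and 52.5 CPM in Tim4+ KCs, and 38.8, 77.5 and 112 CPM in Tim4- KCs. Every CRE+ sample was above every CRE- sample. The log2 fold change was 2.47 (SE 0.31, adjusted p = 1.90e-05) in Tim4+ KCs and 3.39 (SE 0.32, adjusted p = 1.28e-07) in Tim4- KCs. KCs were targeted with Clec4f-cre, so no Itgax-cre transgene was present in them. The KC level of Itgax remained far under the 640 CPM of the lowest CRE- AM sample.

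Itgam had 62.7, 83.2 and 97.2 CPM (lowest, median and highest) in CRE- KCs, 144.5, 185 and 194 CPM in Tim4+ KCs and 129, 199 and 293 CPM in Tim4- KCs. The CRE+ values were all above the CRE- values. Its log2 fold change was 1.09 (SE 0.14, adjusted p = 3.35e-05) and 1.29 (SE 0.14, adjusted p = 1.29e-06). Itgb7 had 46.6, 53.0 and 83.6 CPM in CRE- KCs, 89.3, 136 and 164 CPM in Tim4+ KCs and 84.9, 169 and 251 CPM in Tim4- KCs, with log2 fold changes of 1.19 (SE 0.21, adjusted p = 0.000989) and 1.59 (SE 0.22, adjusted p = 1.51e-05). Here the highest control sample, replicate 5 of the CRE- KCs, came close to the lowest CRE+ samples without overlap.

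The other integrin genes tested in KCs moved little. Itgb2 had 409 to 506 CPM in CRE- KCs, 452 to 570 CPM in Tim4+ KCs and 438 to 612 CPM in Tim4- KCs, and its log2 fold changes of 0.22 and 0.18 did not pass (adjusted p = 0.133 and 0.116). Itgal (log2 fold changes -0.08 and 0.14, adjusted p = 0.768 and 0.359) and Itga4 (0.16 and 0.40, adjusted p = 0.710 and 0.0937) did not pass either. Itga9, abundant in KCs, fell to 408 to 529 CPM in Tim4+ KCs and 368 to 494 CPM in Tim4- KCs from 527 to 635 CPM in CRE- KCs (log2 fold change -0.44, SE 0.08, adjusted p = 0.00205, and -0.52, SE 0.08, adjusted p = 0.000120). Itgb5 fell in Tim4+ KCs (log2 fold change -0.38, SE 0.10, adjusted p = 0.0302), a call lost when replicate 4, 5 or 6 of the CRE- KCs or replicate 1, 2, 3 or 5 of the Tim4+ KCs was left out (adjusted p 0.061 to 0.0953), and Itgb1 fell in Tim4- KCs (log2 fold change -0.27, SE 0.07, adjusted p = 0.0104). Among the KC samples with Xist counts alone, that is within 1 sex, the falls of Itga9 and Itgb5 in Tim4+ KCs had adjusted p-values of 0.0538 and 0.206.

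Tim4- KCs and Tim4+ KCs from the same CRE+ line were compared without a replicate block. Of the 9 genes tested, 1 passed and 0 changed, against 11.5% and 5.45% of the genes tested. The one was Itgax, higher in Tim4- KCs (log2 fold change 0.92, SE 0.29, adjusted p = 0.0420), a call that held only when the sample left out was replicate 5 of the Tim4+ KCs or replicate 1 or 2 of the Tim4- KCs, and was lost without any 1 of the other 9 (adjusted p 0.0591 to 0.102) and among samples with Xist counts alone (0.115). Same-numbered samples deviated together in this comparison, and with the replicate number as a block 2 of the 9 passed. Itgax passed with a log2 fold change of 0.84 (adjusted p = 0.0165) and Itgb5 also passed (0.20, adjusted p = 0.0406, against 0.208 without the block). Samples were left out only in the fit without the block, so how far the blocked call of Itgax rests on single samples was not tested. The next values are again from the fit without the block. Itgam did not pass, with a log2 fold change of 0.20 and a 95% interval of -0.08 to 0.47. Timd4, the sort marker and no integrin, was at 381 ± 54.9 CPM in Tim4+ and 2.80 ± 3.27 CPM in Tim4- KCs (SD, n = 6).

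Markers of other cells moved with these groups as well. B cell markers (5 of 6 listed were in the files) summed to 47.7 to 94.6 CPM in CRE- KCs, 102 to 145 CPM in Tim4+ KCs and 154 to 283 CPM in Tim4- KCs. The sum was led by Cd79b in CRE- KCs and came mostly from Ms4a1 in the CRE+ fractions. Pax5 had at most 0.403 CPM, and Cd79b went from a mean of 47.4 CPM in CRE- KCs to 23.6 CPM in Tim4+ and 60.4 CPM in Tim4- KCs. Of the 6 dendritic cell markers, 0 changed in Tim4+ KCs and 3 changed upward in Tim4- KCs, with sums of 16.5 to 25.8 CPM in CRE- KCs, 25.1 to 44.4 CPM in Tim4+ KCs and 14.7 to 44.1 CPM in Tim4- KCs. Monocyte markers summed to 185 to 320, 173 to 490 and 370 to 875 CPM in CRE-, Tim4+ and Tim4- KCs, with Ccr2 at means of 4.96, 21.8 and 115 CPM and Ly6c2 at no more than 1.75 CPM in any KC sample. Endothelial markers summed to 602 to 1720, 996 to 2790 and 335 to 482 CPM in the same order, and 7 of the 8 changed downward in Tim4- KCs. KC markers summed to 15000 to 16800 CPM in Tim4+ KCs and 9690 to 11200 CPM in Tim4- KCs, where 6 of the 8 changed downward. AM markers summed to 194 to 354 and 323 to 523 CPM in Tim4+ and Tim4- KCs, led by Siglecf, and eosinophil markers to 43.2 to 61.1, 110 to 589 and 142 to 679 CPM in the 3 KC groups, led by Ccr3, while Epx was at 0 in all of them. The study found SiglecF and the product of Ms4a1 on KCs that had deleted Zeb2, so neither gene marks other cells alone. The part of any of these in the integrin values, or in those of other genes named below, was not tested.

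The response of several integrin genes differed between the tissues. The difference was tested as the mean change in both CRE+ KC fractions less that in both CRE+ AM fractions, in 1 fit of all 33 samples, where 5 of the 9 genes other than Itgam passed and 4 changed, against 19.5% and 8.15% of the 13294 genes tested. Itga9 is in both counts, and its AM change starts from controls without any count. For Itgam the difference was -3.94 (SE 0.27), a value that holds the sort on CD11b in AMs and is given with no test. On the log2 scale, the change in Itgax was larger in KCs (2.28, SE 0.29, adjusted p = 3.35e-07). Mean CPM went from 7.38 to 41.5 (Tim4+) and 78.5 (Tim4-) in KCs. In AMs it went from 738 to 1030 (CD11b-) and 1333 (CD11b+), so in CPM the change was larger in AMs. There the Itgax-cre transgene and the loss of Zeb2 cannot be told apart. Itgb2 (1.04, SE 0.09, adjusted p = 3.84e-11) and Itga4 (1.67, SE 0.22, adjusted p = 5.85e-07) fell in AMs and did not pass in KCs. Itgb1 rose in both AM fractions and was lower in Tim4- KCs (-0.71, SE 0.08, adjusted p = 4.42e-08). For Itgb7, which rose in both KC fractions and in CD11b+ AMs, no difference was detected (-0.24, 95% interval -1.24 to 0.76, adjusted p = 0.833). Tissue and Cre line cannot be told apart in this comparison, in which the AM samples were of 1 sex.

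**Figure D3:**
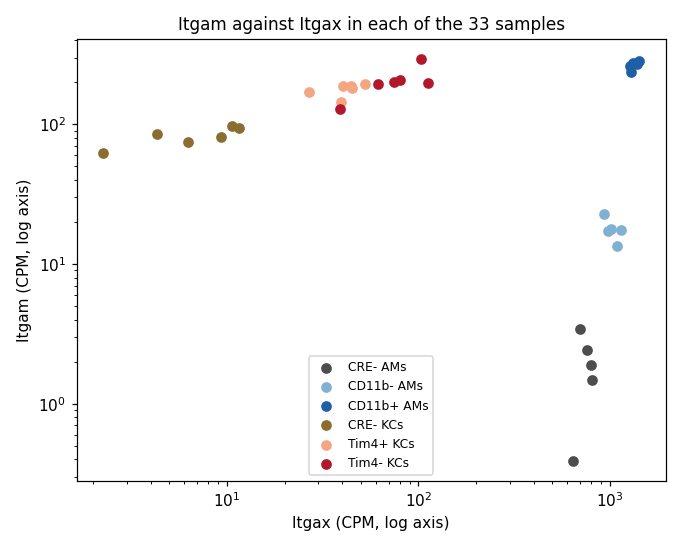
CPM of Itgam against CPM of Itgax in each of the 33 samples, both axes logarithmic, with 1 color per group. AM groups stand at or above 640 CPM of Itgax and spread along Itgam from 0.391 to 282 CPM, while KC groups spread along Itgax from 2.26 to 112 CPM.

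When levels were divided by the length of the merged exons, the 4 alpha subunits that share Itgb2 could be compared with each other. In CRE- AMs, Itgax made up 61.9 ± 1.51% (SD, n = 5) of their summed RNA per kb, Itgal 36.7 ± 1.24% and Itgam 0.154 ± 0.0935%. In CD11b+ AMs, Itgam made up 12.2 ± 0.573%, Itgax 64.4 ± 1.15% and Itgal 23.3 ± 1.11%. CD11b- AMs lay between them for Itgam, at 1.20 ± 0.268%. The Itgam shares of the CRE+ AM fractions hold the sort on CD11b. In CRE- KCs, Itgal made up 88.4 ± 1.83% (SD, n = 6), Itgam 10.6 ± 1.498% and Itgax 0.974 ± 0.472%, and in Tim4- KCs the shares were 73.1 ± 3.34%, 19.3 ± 2.59% and 7.65 ± 1.68%. Tim4+ KCs had 74.8 ± 3.53%, 20.3 ± 2.75% and 4.94 ± 1.11%.

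The ratio of the 4 summed alpha subunits to Itgb2, per kb, was 0.317 ± 0.0177 in CRE- AMs, 0.604 ± 0.0207 in CD11b- AMs and 1.10 ± 0.0794 in CD11b+ AMs. In KCs it was 1.06 ± 0.0594 in CRE- cells, 1.02 ± 0.0968 in Tim4+ cells and 1.24 ± 0.141 in Tim4- cells. The ratio was lowest in CRE- AMs, with no overlap with CD11b- AMs (0.296 to 0.333 against 0.574 to 0.631). In CRE+ AMs the sum includes Itgam, on whose product the cells were sorted. It also includes Itgax, where the transgene and the loss of Zeb2 cannot be told apart. These are ratios of RNA that share their libraries and lengths, and they are given as a description with no test.

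**Figure D4:**
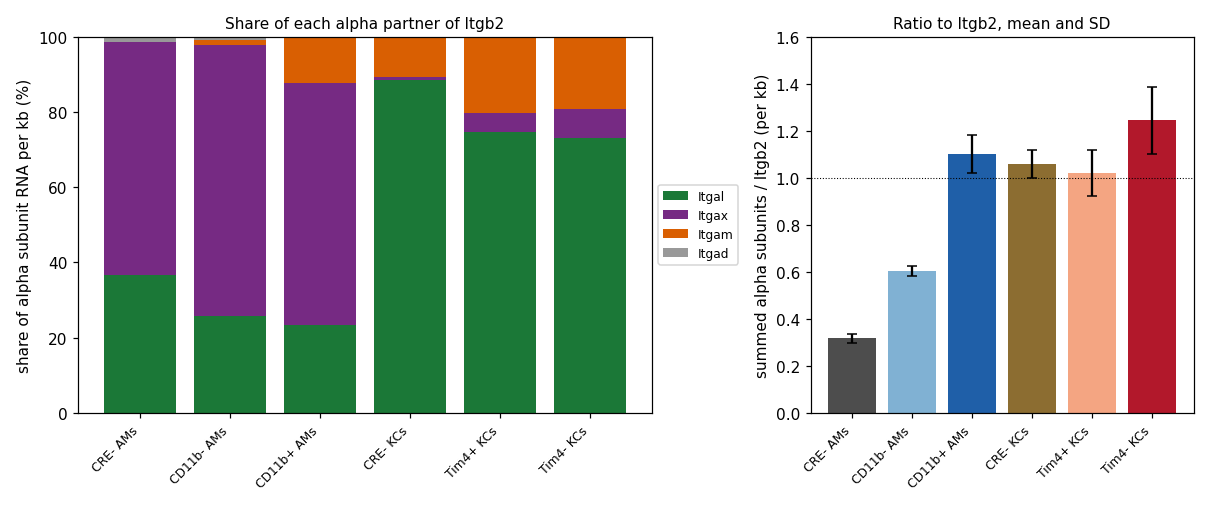
Left, mean share of Itgal, Itgax, Itgam and Itgad in their summed RNA per kb in each group. Right, ratio of that sum to Itgb2 per kb, bars from 0 with the SD. Itgam took 0.154% of the sum in CRE- AMs and 12.2% in CD11b+ AMs, and the ratio rose from 0.317 to 1.10. Both values in CD11b+ AMs hold the sort on CD11b, the product of Itgam.

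Ordered by RNA level per kb, CRE- AMs ran Itgb2 (783), Itgax (154), Itgb1 (133), Itgb5 (122), Itgal (90.9), Itgad (3.15), Itga4 (2.86), Itgb7 (0.851), Itgam (0.383) and Itga9 (0), in CPM per kb. The ranges of neighbors overlapped for Itgax and Itgb1, Itgb1 and Itgb5, Itgad and Itga4, and Itgb7 and Itgam. CRE- KCs ran Itgb5 (305), Itgb1 (187), Itgb2 (147), Itgal (137), Itga9 (78.2), Itgb7 (20.3), Itgam (16.4), Itga4 (4.68), Itgax (1.54) and Itgad (0.0166). There the ranges of Itgb2 and Itgal, and of Itgb7 and Itgam, overlapped.

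Across the 6 groups, the order of each gene's CPM followed tissue for most genes. Itgax ran from CD11b+, CD11b- and CRE- AMs, without overlap, down to Tim4- and Tim4+ KCs, which overlapped, and CRE- KCs at the bottom. Itgb2 ran from CRE-, CD11b- and CD11b+ AMs, without overlap, to the 3 KC groups, whose ranges overlapped. Itgam followed tissue except in CD11b+ AMs, which were sorted on its product. CD11b+ AMs, Tim4- KCs and Tim4+ KCs came first with overlapping ranges, then CRE- KCs, CD11b- AMs and CRE- AMs, each apart from the next. Itgb7, Itga9, Itgb5 and Itgal were higher in every KC group than in any AM group, and Itgad was higher in every AM group than in any KC group, without overlap between the tissues. Itgb1 was highest in CD11b+ AMs and lowest in CRE- AMs, and among the other 4 groups the ranges of neighbors in rank overlapped, while CRE- KCs lay above CD11b- AMs without overlap. Itga4 was lowest in both CRE+ AM groups, which overlapped, and the ranges of the 4 others overlapped from neighbor to neighbor.

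The genes on either side of the Itgam, Itgax and Itgad run did not share its values as a block. Among the neighbors examined, Pycard, which encodes the inflammasome adaptor ASC, rose in CD11b- AMs (log2 fold change 0.64, SE 0.09, adjusted p = 1.92e-05), CD11b+ AMs (0.95, SE 0.09, adjusted p = 2.66e-08) and Tim4- KCs (0.40, SE 0.12, adjusted p = 0.0155). Prss8 (3.91, SE 1.04, adjusted p = 0.00450) and Cox6a2 rose in CD11b+ AMs. Whether the Itgax-cre transgene of the CRE+ AMs holds any of these genes is not known here, and its part in the AM values was not tested. Prss36, Armc5, 9130023H24Rik and Tgfb1i1 did not pass in any of the 4 comparisons with controls, and the log2 fold changes of Armc5 lay between -0.27 and 0.09. Trim72 and 4931431B13Rik had too few counts to be tested.

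**Figure D5:**
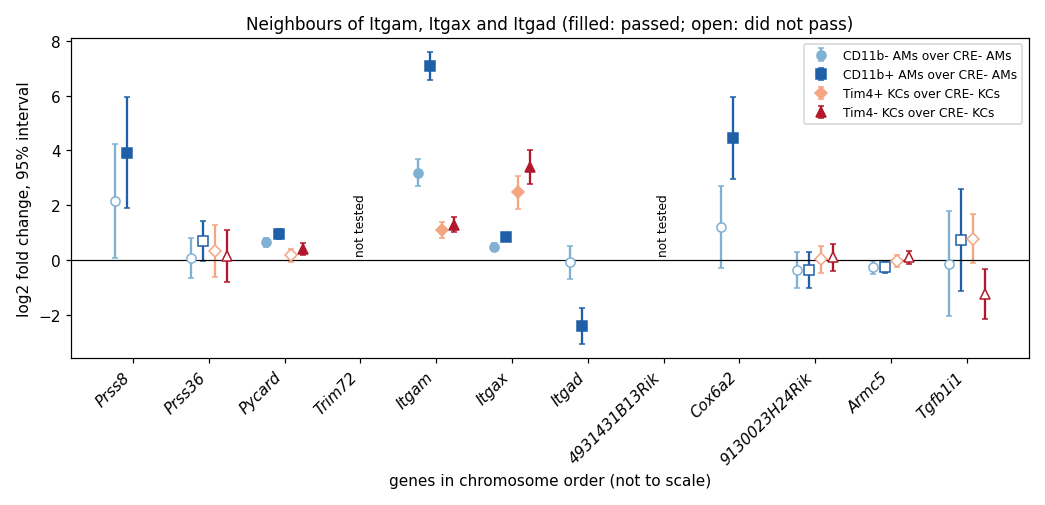
Log2 fold change with 95% interval of Itgam, Itgax, Itgad and neighboring genes, in chromosome order and not to scale, in each CRE+ fraction over its control. Filled symbols passed. Itgam stood at 7.08 in CD11b+ AMs, which were sorted on its product, while Armc5 stood at -0.26.

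Other integrin genes were mostly absent or weak. Of 17 further integrin subunits, 9 were tested in AMs and 8 in KCs. In CD11b+ AMs, 4 rose and 1 fell, and in CD11b- AMs, 2 rose and 0 fell, with list medians of 0.68 and 0.17. These counts of 5 and 2 of 9 stand beside 43.2% and 25.7% of all genes tested that passed. Itgav, the partner of Itgb5, rose in CD11b+ AMs from 68.6 to 111 CPM (log2 fold change 0.68, SE 0.09, adjusted p = 6.71e-06), and Itga6, a laminin receptor subunit, rose from 19.7 to 31.7 CPM (0.67, adjusted p = 0.00104). Itga7 and Itga3 rose there from at or near 0 to means of 2.08 and 1.41 CPM. Neutrophil and lung epithelial markers rose in CD11b+ AMs as well, and their part in these rises was not tested. Itga1, a collagen receptor subunit, fell from 8.69 to 2.49 CPM (log2 fold change -1.81, adjusted p = 0.00123). In Tim4+ KCs, 1 rose (Itga6, log2 fold change 1.20, adjusted p = 0.0364), and in Tim4- KCs 2 fell, Itga1 from 15.2 to 4.57 CPM (-1.73, adjusted p = 0.000606) and Itga8 from 5.91 to 1.81 CPM (-1.71, adjusted p = 0.0102). Endothelial markers were lower in Tim4- KCs too, and their part in these falls was not tested. The list medians were 0.54 in Tim4+ and -0.65 in Tim4- KCs, and 6.09% and 25.4% of all genes tested passed there. Itgae, the other partner of Itgb7, did not exceed a mean of 1.49 CPM in any group and passed in none of the comparisons.

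Of 35 genes for integrin activation and adaptor proteins, 13 of the 30 tested passed in CD11b+ AMs (7 higher, 6 lower) and 3 changed, all upward, against 43.2% and 15.3% of all genes tested, with medians of 0.06 for the list and -0.01 for all genes. These were Src, Fyb and Vcl. Neutrophil and lung epithelial markers rose in CD11b+ AMs too, and their part in the rises of these genes was not tested. Vcl, which encodes the focal adhesion protein vinculin, rose from 4.11 to 23.8 CPM (log2 fold change 2.52, SE 0.28, adjusted p = 3.10e-07), and Src, a tyrosine kinase downstream of integrins, rose from 0.808 to 12.8 CPM (3.96, adjusted p = 3.23e-07). Fermt3, which encodes the hematopoietic kindlin needed for beta2 integrin activation, fell in CD11b- AMs (-0.28, adjusted p = 0.00200) and CD11b+ AMs (-0.43, adjusted p = 1.13e-05). Tln1, which encodes talin, did not pass in AMs (-0.16 and 0.18) and fell in Tim4- KCs (-0.39, adjusted p = 0.0105). In CD11b- AMs, 10 of the 30 passed and 0 changed, against 25.7% and 6.5% of all genes tested.

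In KCs, 33 of the 35 were tested. In Tim4+ KCs, 4 passed and 1 changed, against 6.09% and 2.31% of all genes tested. In Tim4- KCs, 14 passed and 6 changed, 1 upward and 5 downward, against 25.4% and 8.82%. The list medians were 0.04 and 0.11. Parvg, which encodes the leukocyte parvin, was the gene that changed upward in both fractions, from 67.5 CPM in CRE- KCs to 151 CPM in Tim4+ KCs (log2 fold change 1.15, adjusted p = 1.72e-06) and 158 CPM in Tim4- KCs (1.21, adjusted p = 2.50e-07). The 5 that fell in Tim4- KCs were Src (-1.94, adjusted p = 0.000124), Ptk2, Fermt2, Parva and Bcar1. Ptk2, which encodes focal adhesion kinase, had 53.9 CPM in CRE- KCs and 21.8 CPM in Tim4- KCs (-1.32, adjusted p = 3.76e-05). Fermt2 and Parva encode adaptors of broad use outside leukocytes. Endothelial markers were also lower in Tim4- KCs, and their part in the falls of all 5 genes was not tested.

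Ligands of these integrins were also measured in the sorted cells. Of 12 ligands of beta2 integrins, C3, the complement component whose fragment binds Mac-1, changed in Tim4+ KCs, Tim4- KCs and CD11b+ AMs. It rose from 90.2 to 232 and 189 CPM in KCs (log2 fold changes 1.34, adjusted p = 0.000294, and 1.05, adjusted p = 0.000939), from 195 to 345 CPM in CD11b- AMs (0.82, adjusted p = 2.27e-05) and to 1034 CPM in CD11b+ AMs (2.39, adjusted p = 2.86e-12). F11r, which encodes the LFA-1 ligand JAM-A, rose from 87.9 CPM in CRE- KCs to 229 and 292 CPM in the CRE+ KCs (1.36, adjusted p = 1.27e-05, and 1.72, adjusted p = 2.01e-07) and did not pass in AMs. Icam1 fell in CD11b+ AMs (-0.43, adjusted p = 0.00347) and did not pass in the other 3 fractions. In all, 2 of 10 rose and 0 fell in Tim4+ KCs, 2 rose and 2 fell (Jam2 and Fgb) in Tim4- KCs, 1 of 6 rose in CD11b- AMs, and 1 rose and 2 fell in CD11b+ AMs. The list medians were 0.23, -0.88, -0.32 and -0.51, and the shares of all genes tested that passed were 6.09%, 25.4%, 25.7% and 43.2%. Fgb is also among the hepatocyte markers, which summed to 155 to 385 CPM in CRE- KCs and 75.6 to 187 CPM in Tim4- KCs, and endothelial markers were lower in Tim4- KCs too. The part of either in these falls was not tested. Neutrophil and lung epithelial markers rose in both CRE+ AM fractions, and their part in the rise of C3 there was not tested.

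Of 11 ligands of the beta1, beta7 and beta5 integrins, all 7 tested in CD11b+ AMs passed, 4 upward and 3 downward (list median 1.86, and -0.01 for all genes). Cdh1, which encodes the epithelial cadherin bound by Itgae with Itgb7, rose from 94.0 CPM in CRE- AMs to 271 CPM in CD11b- AMs (log2 fold change 1.53, SE 0.11, adjusted p = 3.39e-09) and 344 CPM in CD11b+ AMs (1.86, SE 0.11, adjusted p = 3.50e-11). Mfge8, which encodes a bridge between dying cells and alphav integrins, rose from 11.7 to 29.4 and 164 CPM (1.33, adjusted p = 7.66e-06, and 3.79, adjusted p = 1.10e-12). Cdh1 is itself among the lung epithelial markers, which rose in both CRE+ AM fractions, as did neutrophil markers. The part of such cells in the rises of Cdh1 and Mfge8 was not tested. Emilin1, whose product is bound by alpha4 and alpha9 with beta1, fell from 246 to 76.1 and 21.9 CPM (-1.69, adjusted p = 8.39e-07, and -3.50, adjusted p = 1.65e-11), and Fn1, encoding fibronectin, from 787 to 108 and 328 CPM (-2.87, adjusted p = 5.64e-09, and -1.28, adjusted p = 2.75e-05). Vcam1, the ligand of alpha4, was at 584 CPM in CRE- KCs, 679 CPM in Tim4+ KCs and 250 CPM in Tim4- KCs, where it fell (-1.24, SE 0.27, adjusted p = 0.00177). Endothelial markers were lower in Tim4- KCs as well, and their part in this fall was not tested. In Tim4+ KCs 1 of 9 rose and 0 fell, in Tim4- KCs 1 rose and 4 fell, and in CD11b- AMs 3 of 7 rose and 2 fell, with list medians of 0.90, -1.02 and -0.01 (-0.00563), where 6.09%, 25.4% and 25.7% of all genes tested passed. In CD11b+ AMs that share was 43.2%.

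Genes with the pattern most like Itgam over the 33 samples, by Pearson's r of log2 CPM among 13293 other genes, were Ckap4 (r = 0.957), Gm7609 (0.951), Pdgfa (0.947), Zfp36l1 (0.941) and Mmp14 (0.941). Mmp14, which encodes a membrane-bound matrix protease, had 0.514 CPM in CRE- AMs, 7.05 CPM in CD11b- AMs and 105 CPM in CD11b+ AMs, and 32.1 CPM in CRE- KCs, 41.8 CPM in Tim4+ KCs and 45.9 CPM in Tim4- KCs. For Itgax they included Hcar2 (0.985), Cd300lf (0.985), Dusp5 (0.979) and S100a11 (0.979). S100a11, which encodes a calcium-binding protein, had 463, 502 and 532 CPM in the 3 AM groups (CRE-, CD11b- and CD11b+) and 3.47, 20.3 and 53.2 CPM in CRE-, Tim4+ and Tim4- KCs. The 33 samples fall into 2 tissues and share 6 groups, so these values describe the groups more than the single samples.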

How the data were processed

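Bulk RNA-seq was available for 33 samples in 6 groups, which were taken from the labels. Per the labels and the study's methods, the authors trimmed reads with Trimmomatic 0.35 (quality 20, minimum length 35), mapped them to mm10 with TopHat2 2.1.0 and counted them per gene symbol, and the deposited counts are raw, with 5 tally rows (5.88% to 10.1% of each file) that were left out. The annotation and the use of strand are not given in the sources used here.

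Tests were run on these counts with edgeR 4.0.16 in R 4.3.3 (filterByExpr, TMM, quasi-likelihood test), and p-values were adjusted by Benjamini-Hochberg over all genes tested. The groups of a tissue shared 1 fit, CRE- KCs and CRE- AMs had a fit of their own, and the difference between tissues was fitted on all 33 samples. SEs were taken as the fold change divided by the square root of F, and log2 CPM used a prior count of 0.5. Alternatives were limma-voom 3.58.1, DESeq2 1.42.0, RLE factors, other filters, only the groups compared, a replicate block, KC samples with Xist counts only, the low-depth library left out and each sample left out. Positions and exon lengths came from GENCODE M21 (95.72% of symbols found), promoters from RefSeq.

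On simulated counts for CD11b+ against CRE- AMs (11573 genes), edgeR recovered 87% of genes changed by 2 on the log2 scale and 73% of those changed by 1, with 9 false calls. For Tim4- against CRE- KCs (12500 genes) it recovered 81% and 56%, with 8 false calls.

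Replicates of a group differed by more than sampling noise (lowest chi-square per gene 12.8 over 75 pairs). The labels do not say that samples were separate animals, so p-values measure the spread between these samples, which may be technical. Replicate numbers came from the titles. In Tim4- against Tim4+ KCs every same-numbered pair deviated together (r 0.112 to 0.251, 6 pairs), so the numbers pair the samples there. The values given are from the fit without the block unless said otherwise, and the blocked values stand beside those whose call they change.

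All 10 integrin genes were named in every comparison, and from each list at most 8 genes that changed against controls, ranked by mean absolute log2 fold change, plus Itgae, Itgav, Cdh1, Vcam1, Icam1, Fermt3 and Tln1, though not all are described. The integrin genes and the lists were chosen with earlier results of these data known. Single-cell data were not analysed here, and some genes that the naming rules pick are not reported here.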

Additional observations from a re-analysis of the deposited data

Results flagged for a closer look

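Of 59 groups of 4 to 10 samples tested with Dixon's ratio, 4 had a sample far from the others, and chance flags about 1 in 20 groups. Itgad had 0.855 CPM (21 counts) in replicate 3 of the Tim4- KCs and 0 in the other 5. Itgad had 0.397 CPM (8 counts) in replicate 5 of the CRE- KCs, where the others had at most 0.0522. Itgb7 had 83.6 CPM in the same replicate 5 of the CRE- KCs, above the 46.6 to 54.3 of the others. Itgb1 had 494 CPM in replicate 5 of the CRE- AMs, below the 542 to 558 of the others.

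The change of CRE+ against CRE- cells differed between KCs and AMs, by the test of the difference itself, for Itgax (2.28 on the log2 scale), Itgb2 (1.04), Itga4 (1.67) and Itga9 (-7.12). Itgam was flagged too, at -3.94. That value holds the sort of AMs on CD11b, does not measure the tissues alone and is given with no test. For Itga9 the size is set by the small count added to CRE- AMs, which had none.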

How the results depend on the processing

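None of the called fold changes of the 10 integrin genes changed sign in the alternatives run. With 1 sample left out, 2 uncalled ones did, Itgad in CD11b- against CRE- AMs (-0.27 to 0.07) and Itgb7 in the difference between tissues (-0.79 to 0.06). In other settings 570 kept their side of the threshold, 9 gained a call and 5 lost it, and with 1 sample left out 1032 kept it, 11 gained and 21 lost it. Each lost call is given above with its comparison, and gained calls included Itgal in CD11b+ AMs (adjusted p = 0.0422 in DESeq2 and 0.0494 in limma-voom), Itga9 between CD11b+ and CD11b- AMs (0.0442 in limma-voom) and the difference between tissues in Itgad, which was 2.74 (adjusted p = 0.0616) in the fit used, 5.30 (adjusted p = 0.00277) with Xist samples only and 0.33 without replicate 3 of the Tim4- KCs.

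With at least 10 counts in every sample, which tests fewer genes, 2228 genes changed between KCs and AMs (4045 in the analysis reported), 187, 688 and 451 in Tim4+ against CRE- KCs, Tim4- against CRE- KCs and Tim4- against Tim4+ KCs (289, 1103 and 681), 394, 1114 and 672 in CD11b- against CRE- AMs, CD11b+ against CRE- AMs and CD11b+ against CD11b- AMs (752, 1765 and 1175), and 522 between the tissues (1083). Integrin genes then numbered 3 between KCs and AMs, 1, 3 and 1 in the AM comparisons and 3 between the tissues. With no fold cut-off the same comparisons gave 7680, 761, 3169, 1433, 2972, 5004, 4215 and 2597 genes, with 5, 5 and 1 integrin genes in KCs and 8 and 9 in CD11b- against CRE- AMs and CD11b+ against CD11b- AMs. The share of calls that were higher then moved from 62.9% to 52.7%, 83.7% to 59.7% and 8.08% to 33.5% for KCs against AMs, Tim4+ against CRE- KCs and Tim4- against Tim4+ KCs, and from 62.8% to 52.7% and 67.5% to 54.4% in the 2 with CD11b+ AMs. Xist samples alone gave 190 genes in Tim4+ against CRE- KCs. Without replicate 1 of the Tim4- KCs, the library of low depth, or replicate 5 of the Tim4+ KCs, 1 integrin gene changed between Tim4- and Tim4+ KCs (0 to 1 over all samples left out), and without the former Itgal (0.29, adjusted p = 0.0359) and Itgb5 (0.29, adjusted p = 0.0293) passed.

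With a replicate block, outside the paired comparison, Itgb5 passed in Tim4- against CRE- KCs (-0.18, adjusted p = 0.0413) and Itgb7 in CD11b- against CRE- AMs (1.05, adjusted p = 0.0180), and it changed no other call. There the pair correlations of deviations ran from -0.0722 to 0.207, and whether a shared number marks a shared source is not known. In CD11b+ against CRE- and against CD11b- AMs, 5 of 5 samples correlated best with their own number, so the CRE+ AM fractions may be paired as well. Depth limits Itgad in KCs and Itga9 in AMs, where counts were near 0.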
